A study of Mus musculus with 4 samples.

Results

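The regions described here are Pol II peaks that lie in the interior of long genes in OSS_128167 treated primary mouse osteoblasts. A member is a listed peak shorter than 1000 bp on chromosomes 1 to 19 that lies inside a protein-coding gene of at least 100 kb and more than 1000 bp from both of its boundaries. There were 8673 such peaks, which is 21.3% of the 40748 peaks in the list and 22.0% of the 39355 peaks that met the limits on length and chromosome. They fell in 1946 of the 2313 long genes. Members were chosen by the listed position and length of a peak, so their number is a description. The assay was ChIP-seq, which sequences the DNA pulled down together with a protein, here RNA polymerase II (Pol II).

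Mesenchymal stem cells taken from the bone of mice labelled young had been kept for 3 days in osteogenic medium. The study has 4 samples, a Pol II library and an input library of WT osteoblasts, and the same pair for osteoblasts treated with OSS_128167, an inhibitor of the chromatin deacylase SIRT6. The treatment field names the inhibitor for all 4 samples, so the untreated group rests on the titles, and no strain, dose or number of animals is given. Both Pol II peak lists were used and the inputs were not analysed here. With 1 library per condition, no test between conditions was possible, and the depth of the libraries is unknown because the lists hold no read totals. Of the osteoblast markers, Runx2, Col1a1, Col1a2, Sparc and Sp7 had peaks in the OSS_128167 list, while Alpl, Bglap, Ibsp, Spp1 and Dmp1 had none.

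Pol II starts transcription at promoters, often waits a short way downstream of the start, and then travels the whole gene. Past the polyadenylation site it slows and terminates at a variable distance beyond the gene. SIRT6 is a chromatin deacylase that has been tied to the retention of Pol II near promoters. Long genes are common among genes of neuronal adhesion and synapses, and they also include genes for matrix proteins, cytoskeletal proteins and developmental transcription factors that mesenchymal cells use.

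Most members were not at a start, and the sequences shown next are those of a few starts of genes named in these results. Each is the 250 bases before an annotated start (RefSeq, GRCm38.p6, the assembly behind mm10), read in the direction of transcription. The Cald1 and Runx2 outer starts had a peak over them. The Sorbs2 start at 120 kb and the Lmo7 internal start stand where the interior peaks of these genes became dense. The Sorbs2 start at 154 kb and the Cald1 internal start had a member within 1 kb, and the Sgk1 internal start lay under one. The outer start of Cntnap2, one of the longest genes, had no peak within 1 kb and is shown for contrast. Capitals mark GGGCGG and TATAAA, searched on both strands, and TGANTCA, which reads as the same motif on both strands. These are motifs of Sp and Klf factors, of the TATA box and of AP-1, and each match was counted, overlapping or not.
Cald1 outer start (chr6:34598254-34598503, plus strand): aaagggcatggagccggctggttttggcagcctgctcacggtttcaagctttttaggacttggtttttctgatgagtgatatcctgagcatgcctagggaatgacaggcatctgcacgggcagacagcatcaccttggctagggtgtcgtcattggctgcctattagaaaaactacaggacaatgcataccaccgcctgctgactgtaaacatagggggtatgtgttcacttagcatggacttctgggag
Cald1 internal start (chr6:34709194-34709443, plus strand): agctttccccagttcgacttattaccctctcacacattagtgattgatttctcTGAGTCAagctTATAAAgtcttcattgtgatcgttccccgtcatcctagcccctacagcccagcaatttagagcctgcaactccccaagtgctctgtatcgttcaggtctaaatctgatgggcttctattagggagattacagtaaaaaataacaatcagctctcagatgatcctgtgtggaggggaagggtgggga
Runx2 start (chr17:44814628-44814877, minus strand): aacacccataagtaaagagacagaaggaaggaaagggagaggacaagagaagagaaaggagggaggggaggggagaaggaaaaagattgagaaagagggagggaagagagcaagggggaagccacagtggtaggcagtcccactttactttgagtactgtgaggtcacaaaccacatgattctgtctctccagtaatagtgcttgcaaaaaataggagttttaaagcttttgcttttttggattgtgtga
Sorbs2 internal start at 120 kb (chr8:45627501-45627750, plus strand): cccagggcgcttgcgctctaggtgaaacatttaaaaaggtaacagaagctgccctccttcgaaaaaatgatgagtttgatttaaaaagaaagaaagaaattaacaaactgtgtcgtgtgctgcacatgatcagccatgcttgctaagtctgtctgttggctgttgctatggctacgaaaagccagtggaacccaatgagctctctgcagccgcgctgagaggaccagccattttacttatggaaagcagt
Sorbs2 internal start at 154 kb (chr8:45661743-45661992, plus strand): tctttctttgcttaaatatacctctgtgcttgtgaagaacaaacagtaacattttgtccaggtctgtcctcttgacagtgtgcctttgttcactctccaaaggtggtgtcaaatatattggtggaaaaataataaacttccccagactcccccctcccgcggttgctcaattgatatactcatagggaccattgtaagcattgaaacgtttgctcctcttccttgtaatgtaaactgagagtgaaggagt
Lmo7 internal start (chr14:101840373-101840622, plus strand): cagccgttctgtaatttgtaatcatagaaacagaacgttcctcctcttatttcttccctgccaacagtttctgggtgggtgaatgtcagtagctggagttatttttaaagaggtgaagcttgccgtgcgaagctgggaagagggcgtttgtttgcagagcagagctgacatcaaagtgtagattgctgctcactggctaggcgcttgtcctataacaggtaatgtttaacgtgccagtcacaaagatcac
Sgk1 internal start (chr10:21994416-21994665, plus strand): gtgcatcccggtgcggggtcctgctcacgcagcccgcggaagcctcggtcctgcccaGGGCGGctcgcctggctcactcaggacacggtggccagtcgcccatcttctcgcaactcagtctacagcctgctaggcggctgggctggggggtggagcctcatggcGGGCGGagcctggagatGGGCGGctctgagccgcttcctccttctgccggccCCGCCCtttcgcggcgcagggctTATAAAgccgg
Cntnap2 outer start (chr6:45059811-45060060, plus strand): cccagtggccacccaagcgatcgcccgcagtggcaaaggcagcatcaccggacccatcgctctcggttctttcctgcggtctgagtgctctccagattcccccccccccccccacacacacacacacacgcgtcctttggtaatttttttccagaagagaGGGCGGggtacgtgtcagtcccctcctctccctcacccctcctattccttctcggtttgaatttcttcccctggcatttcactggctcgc

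The starts with a peak over them or within 1 kb were of more than 1 kind. The Sgk1 internal start held 4 GGGCGG matches and 1 TATAAA match and had a GC content of 70.4%. The Cald1 internal start held 1 TGANTCA and 1 TATAAA match at 45.6% GC. Its only peak within 1 kb lay 488 bp away, with a fold of 2.12 and an FDR of 0.676. Cald1 held 434 interior peaks per Mb, so a peak that near is not particular to this start. The Cald1 outer start and the Runx2 start held no match at 50.4% and 44.8% GC. Among the 2566 annotated starts of long genes, 63 had a peak of any length within 1 kb. Of these 63 starts, 28 (44.4%) held GGGCGG, 13 (20.6%) TATAAA and 6 (9.52%) TGANTCA. Among the other 2503 starts the shares were 49.5%, 6.99% and 4.79%, and among all 20085 protein-coding starts they were 43.4%, 11.7% and 6.18%. Median GC content was 55.2% at starts with a peak and 59.2% at the others. A match describes the letters and not a bound site.

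Long genes with a peak at a boundary carried 1.96 times denser interior peaks than long genes without one. A gene-end peak was any listed peak that reached within 1000 bp of either boundary. Of the 2313 long genes 219 (9.47%) had one, where 14.8% of all protein-coding genes on these chromosomes did. Their interiors held 27.3 peaks per Mb (exact Poisson 95% interval 25.9 to 28.9, 1249 peaks in 45.7 Mb). The interiors of the other 2094 long genes held 13.9 per Mb (13.6 to 14.3, 7440 peaks in 533 Mb), and the ratio was 1.96 (1.85 to 2.08). Sequence more than 5 kb from any annotated gene held 13.3 peaks per Mb (13.1 to 13.5). Long genes without a gene-end peak were therefore close to, and slightly above, the density far from genes, and they were above it on 14 of 19 chromosomes. Every interval reflects counting error alone, and neighbouring peaks are not independent.

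The contrast was larger among the peaks with support after correction for multiple tests. The FDR (the authors' adjusted p-value of a peak within its list) was at most 0.05 for 1067 of the 8673 members (12.3%), against 14.8% of all peaks under 1000 bp on these chromosomes. Members with this support numbered 5.21 per Mb (4.57 to 5.92) in genes with a gene-end peak and 1.56 (1.46 to 1.67) in genes without, a ratio of 3.34 (2.88 to 3.86). Where the gene-end peak also had to reach that FDR, which leaves fewer genes in that class, the ratio was 7.89 (6.61 to 9.38). That ratio was not recomputed without the leading genes. Cald1, Runx2, Sorbs2, Cdh11 and Fgfr2 carried much of the supported density: the other 214 genes with a gene-end peak held 3.00 such peaks per Mb (2.52 to 3.56) and 22.0 members of any FDR (20.7 to 23.5), values that are also above those of genes without one. In genes of 100 to 200 kb the densities of all members were 32.0 and 13.1 per Mb, in those of 200 to 500 kb 23.4 and 13.6, and in those over 500 kb 25.8 and 15.1. The supported peaks of the longest class were at 2.49 and 1.67 per Mb, and their intervals (1.5 to 3.89 and 1.49 to 1.88) overlap. The density was higher with a gene-end peak on 17 of 19 chromosomes, the exceptions being chromosomes 11 and 16.

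**Figure D1:**
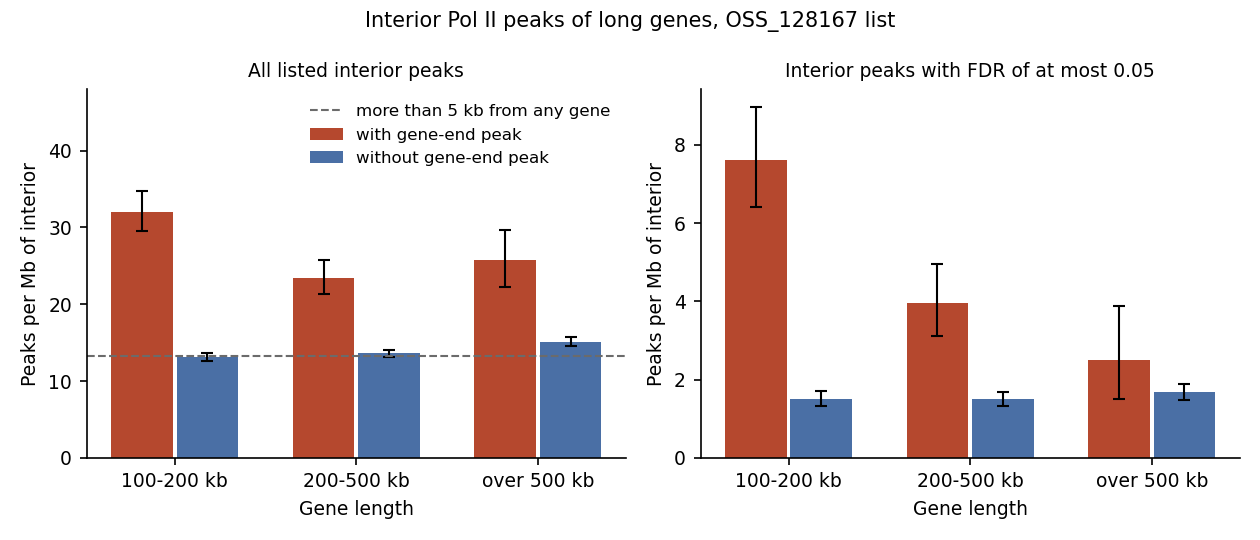
Interior peaks per Mb of interior sequence in long genes with and without a gene-end peak, by gene length, for all members (left) and for members with an FDR of at most 0.05 (right). Bars are densities with exact Poisson 95% intervals and the dashed line is the 13.3 per Mb found more than 5 kb from any gene. Genes without a gene-end peak stay at 13.1 to 15.1 per Mb in every length class, below the 23.4 to 32.0 of genes with one.

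Presence of an interior peak says little in genes this long. An interior peak was found in 198 of 219 long genes with a gene-end peak (90.4%, exact binomial 95% interval 85.7 to 94.0) and in 1748 of 2094 without one (83.5%, 81.8 to 85.0), and over all long genes in 84.1%. A supported interior peak was found in 37.0% (30.6 to 43.8) and 26.3% (24.4 to 28.2) of these genes, and in 27.3% of all long genes. Counts per gene were uneven. There were 367 long genes with 0 interior peaks, 489 with 1, 875 with 2 to 4, 394 with 5 to 9 and 188 with 10 or more. The 116 genes at the top of this order held 29.7% of the peak and gene pairs. Among genes with a gene-end peak the median was 16.4 interior peaks per Mb (quartiles 9.37 and 28.3) and among those without one 10.8 (5.91 and 18.4), so the middle parts of both distributions overlap.

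Among genes with a gene-end peak, Cald1, Runx2, Sorbs2, Cdh11 and Fgfr2 had the highest counts. Cald1, which encodes the actin-binding protein caldesmon (chromosome 6, 34598495 to 34775469), had 76 interior peaks, 38 of them with an FDR of at most 0.05, and a density of 434 per Mb. Runx2, the master transcription factor of the osteoblast lineage (chromosome 17, 44495987 to 44814797), had 60 (17 with that support) at 189 per Mb. Sorbs2, an adaptor protein of actin-based adhesions (chromosome 8, 45507788 to 45827906), had 50 (14) at 157 per Mb. Cdh11, the cadherin of osteoblasts and mesenchymal cells, had 44 (18) at 291 per Mb. Fgfr2, a fibroblast growth factor receptor of skeletal cells (chromosome 7, 130162451 to 130266808), had 36 (17) at 352 per Mb. Tenm4 followed with 35, Lmo7 with 34, Auts2 and Zfhx3 with 25 each and Marchf1 with 24. In the untreated list Runx2 had 2 interior peaks, Cdh11 had 1 and the other 8 of these genes had 0.

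Among genes without a gene-end peak, the highest counts belonged mostly to very long genes and came with low densities. Most of these were on the neuronal list, namely Csmd1, Pcdh15, Cntnap2, Lsamp, Lrp1b, Ptprd and Tenm2. Csmd1 had 47 interior peaks over 1643 kb (28.6 per Mb), Pcdh15, a cadherin of sensory hair cells, 45 (29.0 per Mb), and Cntnap2, a neuronal adhesion protein, 43 over 2241 kb (19.2 per Mb). Lsamp had 40, Lrp1b and Ptprd 37 each, Tenm2 34 and the fragile site gene Fhit 31, at densities between 16.3 and 27.7 per Mb. Of Cntnap2's 43 peaks 7 had an FDR of at most 0.05, and of Csmd1's 47 it was 4. Asap1, which encodes a regulator of focal adhesions, stood apart from these genes with 33 interior peaks at 112 per Mb. In the untreated list Cntnap2 had 6 interior peaks, Pcdh15 and Tenm2 had 1 each, and Csmd1, Lsamp, Lrp1b, Ptprd, Fhit and Asap1 had 0. The 6 densest genes with at least 5 interior peaks were Cald1, Fgfr2, Cdh11, Gxylt2 (202 per Mb), Runx2 and the collagen gene Col12a1 (175 per Mb), and all 6 had a gene-end peak.

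A gene-end peak did not require interior peaks. Of the 219 genes 21 had none, and among these the highest gene-end folds were 6.59 at Tex2, 3.85 at Myo18a, 3.59 at both Klhl3 and Senp7, and 3.23 at Aim2, Arhgap44 and Zfyve9. Fold here is the authors' enrichment of a peak within its own list.

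Along the gene, interior peaks were most frequent toward the 3′ end where the end boundary carried a peak. The strand was known for 1772 of the 2313 long genes (76.6%), those with an annotated start in the RefSeq sequence table. The interior was divided into 10 equal bins, and a flat distribution would put 10% of the peaks in each. In the 1609 genes with no gene-end peak, the last bin held 12.1% of 5653 peaks (11.2 to 12.9) and the first 9.39% (8.65 to 10.2). In the 118 genes with a peak at the end boundary only, the last bin held 23.7% of 523 peaks (20.1 to 27.6), the bin before it 14.5% (11.6 to 17.8) and the first 7.65% (5.52 to 10.3). In the 45 genes with a peak at the start boundary, the first bin held 13.3% of 384 peaks (10.1 to 17.1) and the last 13.5% (10.3 to 17.4). Both intervals lie just above the flat share, and neither side stood out over the other. Of these 45 genes 7 also had a peak at the end boundary, and those 7 held 166 of the 384 peaks.

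Among supported peaks the rise toward the end was larger in genes with an end peak only. Their last bin held 25 of 68 such peaks (36.8%, 25.4 to 49.3) and the bin before it 18 (26.5%, 16.5 to 38.6). In genes with no gene-end peak the last bin held 64 of 639 supported peaks (10.0%, 7.80 to 12.6), an interval that includes both a flat share and the 12.1% of all members.

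**Figure D2:**
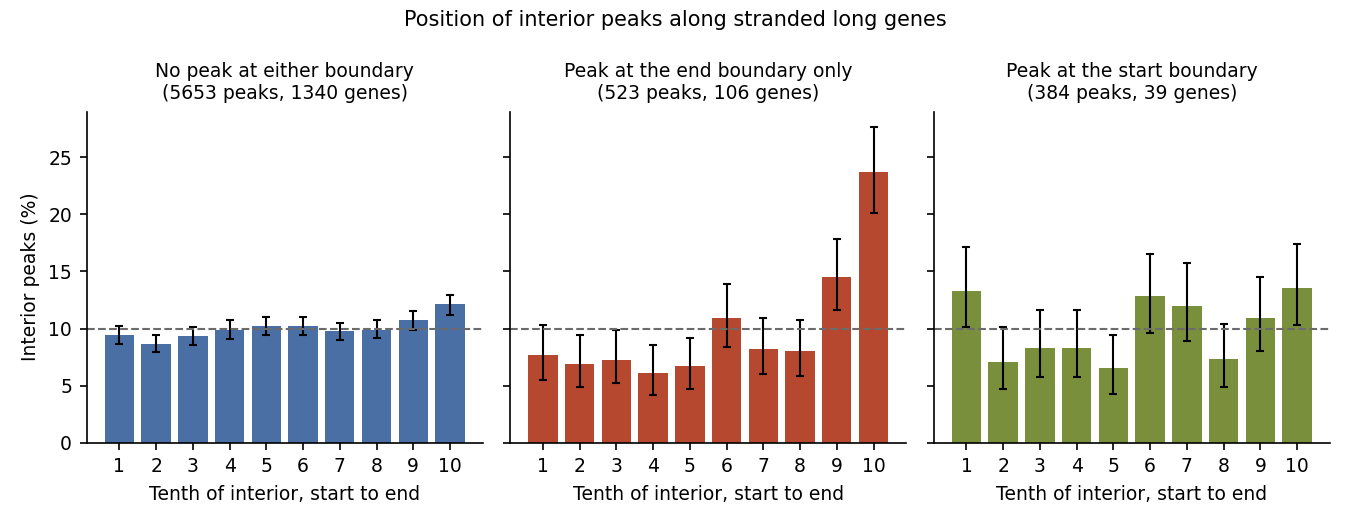
Share of interior peaks in each of 10 equal bins of the interior, from the start to the end of stranded long genes. Panels are genes with no gene-end peak, with a peak at the end boundary only and with a peak at the start boundary. The last of these classes includes genes that also had an end peak. Bars are percentages with exact binomial 95% intervals and the dashed line is a flat distribution at 10%. The last bin reaches 23.7% in the genes with an end peak only.

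Long genes had Pol II peaks at their end boundary more often than at their start boundary. Of 1772 stranded long genes 125 (7.05%, 5.91 to 8.35) had a peak within 1000 bp of the end and 45 (2.54%, 1.86 to 3.38) within 1000 bp of the start, with 7 in both counts. In genes of 20 to 100 kb the shares were 12.1% at the end and 3.40% at the start, and in genes under 5 kb, where both windows lie close, 10.9% and 9.40%. Counted by 1 kb steps around the start boundary of the long genes, peak centres stayed between 6.77 and 16.4 per Mb from 10 kb before to 10 kb inside, with overlapping intervals. Sequence more than 5 kb from any annotated gene held 13.3 per Mb. How many start boundaries would have a peak at that general density was not computed. Around the end boundary the values inside the gene were uneven. They were 19.8 per Mb (13.8 to 27.5) at 9 to 10 kb inside and 18.1 (12.4 to 25.5) at 5 to 6 kb. The highest inside value was 35.0 (26.8 to 44.9) at 1 to 2 kb, and the last 1 kb of the gene was at 27.7 (20.5 to 36.6). The highest value, 60.4 per Mb (49.5 to 73.0), lay 3 to 4 kb beyond the end, outside the gene. Neighbouring genes were not removed from this profile, and part of these outside peaks can belong to them.

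**Figure D3:**
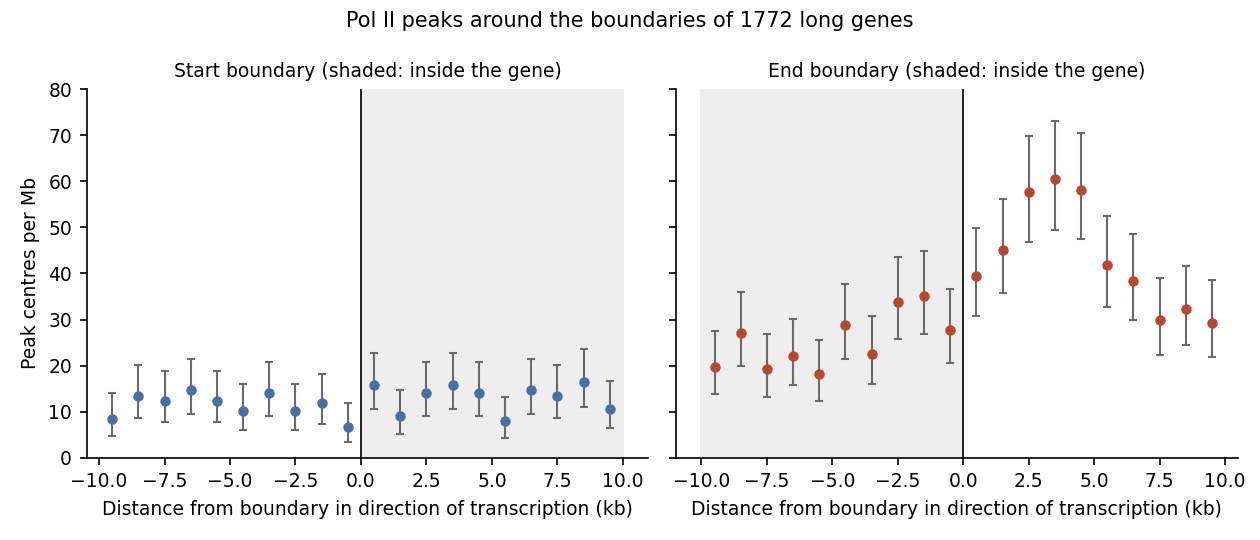
Peak centres per Mb in 1 kb steps around the start boundary (left) and the end boundary (right) of 1772 stranded long genes, with exact Poisson 95% intervals; distance runs in the direction of transcription and the inside of the gene is shaded. The start boundary stays between 6.77 and 16.4 per Mb, while the end boundary rises to 60.4 per Mb at 3 to 4 kb beyond the gene.

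Near an end boundary with a peak, interior peaks were dense and thinned out with distance. At 1 to 5 kb inside the end, density was 114 per Mb (86.3 to 148) in the 125 genes with a peak at that end. It was 56.0 (39.0 to 77.9) at 5 to 10 kb, 48.8 (37.3 to 62.7) at 10 to 20 kb and 31.5 (26.0 to 37.7) at 20 to 50 kb. In the 1647 genes with no peak at the end, it fell from 20.8 (17.5 to 24.6) at 1 to 5 kb to 13.8 (12.8 to 14.9) at 20 to 50 kb. The ratio at 1 to 5 kb was 5.48 (3.95 to 7.52) over all these genes, while in genes of at least 200 kb it was 2.44 (0.939 to 5.38), an interval that includes equal densities. On the start side, the 45 genes with a peak there had 66.7 per Mb (34.4 to 116) at 1 to 5 kb, 48.9 (24.4 to 87.5) at 5 to 10 kb, 55.6 (36 to 82.0) at 10 to 20 kb and 39.3 (29.4 to 51.4) at 20 to 50 kb. These intervals all overlap, so no trend with distance was resolved there. Without Cald1 and Runx2 the start-side value at 20 to 50 kb was 24.8 (17 to 35.0). The 1727 genes with no peak at the start stayed between 11.1 and 11.9 per Mb over the same distances. The 7 genes with peaks at both boundaries, which include Cald1, Fgfr2, Gxylt2 and Col5a1, had 173 interior peaks per Mb (148 to 202), and 41.0% of those peaks had an FDR of at most 0.05. Cald1 and Fgfr2 supplied most of them, and the other 5 genes had 79.3 per Mb (59.5 to 103), 24.1% of them with that FDR. Genes with a start peak only had 28.2 per Mb (24.6 to 32.2), and 17.2 (14.3 to 20.5) without Runx2 and Lmo7. Genes with an end peak only had 21.5 (19.7 to 23.4), and 18.8 (17.1 to 20.6) without Sorbs2 and Tenm4. Without the 5 genes with most interior peaks of each class, the start class was at 13.6 (10.9 to 16.7) and the end class at 17.8 (16.0 to 19.7). Stranded long genes with a peak at neither boundary had 13.7 (13.3 to 14.0).

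Within single genes, interior peaks were not spread evenly, and in Sorbs2 and Lmo7 they thickened at an internal start. Sorbs2 had 2 interior peaks, at 17.8 and 18.7 kb from its start boundary, then none for 104 kb. The next lay 123 kb from the boundary, just past an annotated start at 120 kb, and 48 of the 50 peaks lay beyond that start. This gave 16.8 per Mb (2.04 to 60.7) before it and 241 (178 to 320) after it. In Lmo7, which encodes a protein of adherens junctions, 7 peaks lay before the annotated start at 111 kb (63.8 per Mb, 25.7 to 131) and 27 after it (290, 191 to 422). Cald1 had 38 peaks on each side of its internal start, also at 111 kb, at 346 (245 to 474) and 584 (414 to 802) per Mb, and these intervals overlap. These genes were chosen after their values were seen.

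Runx2 and Fgfr2 showed other patterns. The annotated starts used here include only the outer one for Runx2, so its peaks could not be compared with an internal start. In Runx2 no interior peak lay between 31.3 and 69.5 kb from the start boundary, and none in the last 102 kb of the annotated gene. The last interior peak of Runx2 was 217 kb from its start boundary, and 41 of its 60 peaks lay before the midpoint. Fgfr2 had a peak at 2.01 kb with a fold of 5.16, 1 at 26.1 kb with a fold of 5.81, and 34 between 35.0 and 102 kb. In the interior of Cald1 the longest stretch without a peak was 9.56 kb.

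**Figure D4:**
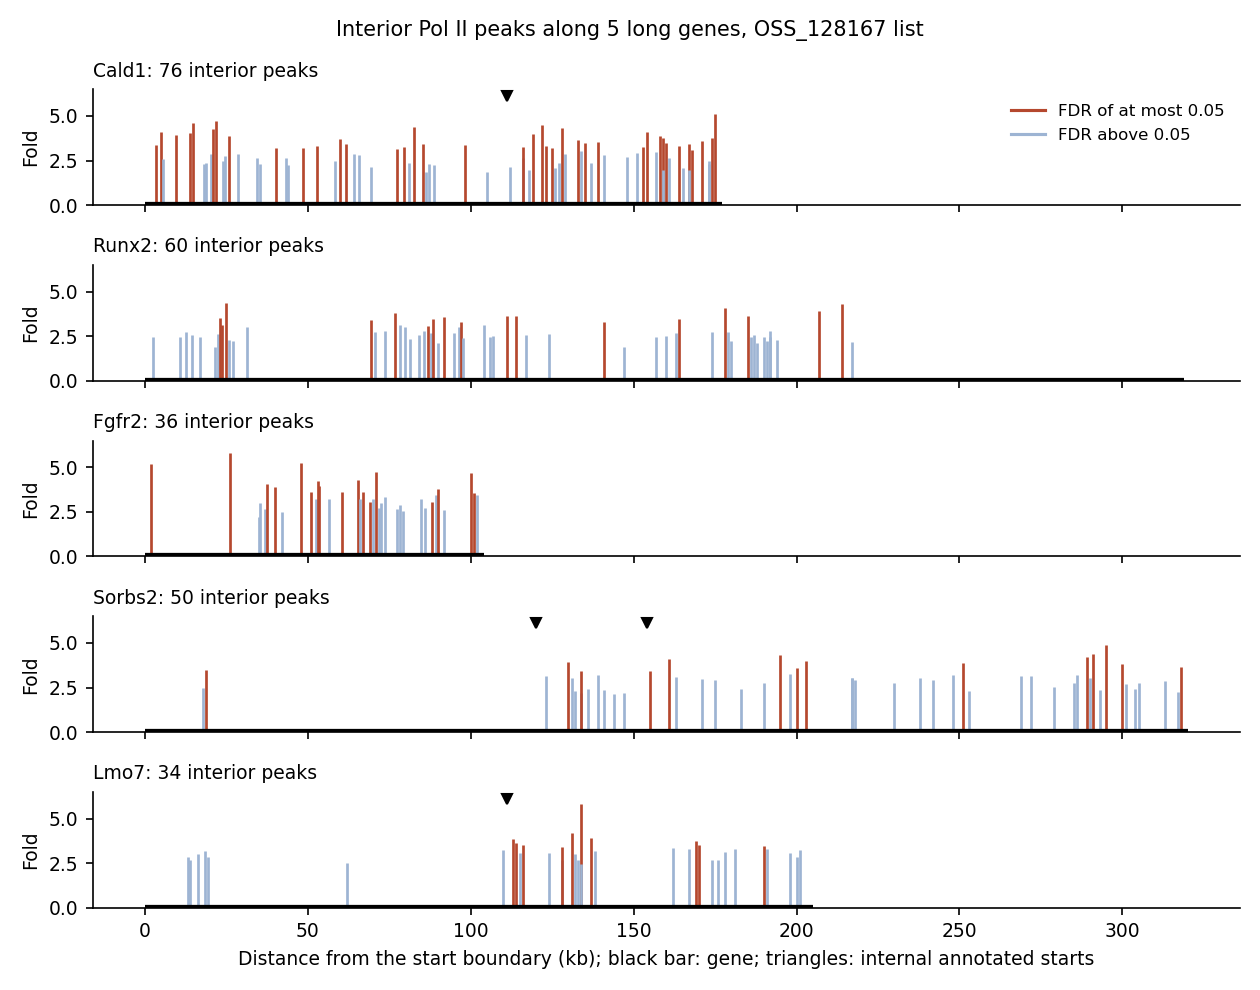
Interior peaks along Cald1, Runx2, Fgfr2, Sorbs2 and Lmo7, drawn at their distance from the start boundary in kb with the authors' fold as height; dark lines have an FDR of at most 0.05 and triangles are internal annotated starts. Peaks of Sorbs2 and Lmo7 become dense beyond the starts at 120 and 111 kb, and Runx2 has none in its last 102 kb.

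Over all long genes with an annotated start at least 20 kb from both boundaries, the 58 with a gene-end peak held 18.9 interior peaks per Mb (15.7 to 22.5) before the first such start and 38.5 (34.3 to 43.0) after it. Cald1, Sorbs2 and Lmo7 are among these 58, and the other 55 held 12.5 (9.88 to 15.6) and 25.3 (21.8 to 29.1). The 408 genes without a gene-end peak had 13.0 (12.1 to 14.0) and 13.8 (13.0 to 14.7), with overlapping intervals. Density also rose toward gene ends, as given for the last bin, and the parts after a start contain those ends. Few members lay directly at internal starts. The share for windows placed elsewhere in these genes was not computed, so the number is no result about starts. Interiors of all stranded long genes held 14.6 peaks per Mb. Of 911 internal starts more than 2 kb from a boundary, 26 (2.85%, 1.87 to 4.15) had a member within 1 kb. These came from 24 members. Of the 24, 4 had an FDR of at most 0.05, where 12.3% of all members did. The supported ones were at Dnah5 (fold 3.59), Sorbs2 (3.42), Sgk1 (3.37), a kinase of the glucocorticoid and serum response, and Pdlim5 (3.34), an actin-associated protein.

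Interior peaks lay closer together in genes with a gene-end peak. Among members with another member in the same gene, the median distance to the nearest was 3.99 kb with a gene-end peak and 19 kb without. A neighbour within 1 kb was found for 25% (22.6 to 27.6) and 6.0% (5.46 to 6.58), and within 5 kb for 53.8% (50.9 to 56.6) and 23.0% (22.1 to 24.0). Distances depend on density, which was not held fixed here.

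The members were weak peaks. Their median fold was 2.87 (quartiles 2.52 and 3.22, range 1.77 to 9.25), their median length 271 bp and their median pileup, the height of signal at the peak, 8. Peaks under 1000 bp at the ends of protein-coding genes had a median fold of 2.93, a median length of 325 bp and an FDR of at most 0.05 in 27.0% (25.4 to 28.6). In peaks more than 5 kb from any gene that share was 11.5% (11 to 12.1). Among members it was 19.1% (16.9 to 21.3) in genes with a gene-end peak and 11.2% (10.5 to 11.9) in genes without. For 33.5% of the members the fold was 0.359 times the pileup plus 1 (within 0.0005 of that factor), so most differences in fold between such peaks are steps of 1 unit of pileup. At the limits of the rule, the longest member was 989 bp and the shortest interior peak left out for its length 1010 bp. The shortest long gene, Tut4 (100006 bp), had 1 interior peak, and the longest gene left out, Arsg (99998 bp), had 2. The nearest member lay 1012 bp from a boundary and the nearest peak left out 1000 bp.

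Several of the members with the highest fold lay on smaller genes inside the long one. The highest fold, 9.25 (FDR 3.98e-24), was in Vac14 on chromosome 8 from 110630442 to 110630815. That peak lay over the tRNA gene n-TGgcc11 and within 1 kb of n-TGgcc10; tRNA genes are transcribed by RNA polymerase III. In Dnm3, which encodes a dynamin, peaks of fold 5.52 (chromosome 1, 162217610 to 162218282) and 5.42 lay on Dnm3os, and the first of them over Mir199a-2. Another peak in Dnm3 (fold 3.62, FDR 0.00897) lay 326 bp from Mir214. Both microRNA genes are on the plus strand and Dnm3 on the minus strand. Dnm3os is the noncoding RNA from which these microRNAs are made, and it is known for its part in skeletal development. Their mature sequences (RefSeq, GRCm38.p6) are shown, with the seed at bases 2 to 8 in capitals, because these peaks of high fold lay at microRNA genes on the strand opposite to the host; no seed is shared among the 4.
mmu-miR-199a-5p (chr1:162217844-162217866, plus strand): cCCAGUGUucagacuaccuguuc
mmu-miR-199a-3p (chr1:162217883-162217904, plus strand): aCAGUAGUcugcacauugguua
mmu-miR-214-5p (chr1:162223397-162223418, plus strand): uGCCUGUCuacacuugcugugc
mmu-miR-214-3p (chr1:162223438-162223459, plus strand): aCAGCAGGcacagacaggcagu

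The other members of highest fold lay in Lmo7 (5.85), Fgfr2 (5.81), Med13l (5.61), a subunit of the Mediator kinase module, Wwp2 (5.50), a ubiquitin ligase, and Aff1 (5.39), a scaffold of an elongation complex. Wwp2 hosts Mir140, a microRNA known from cartilage, and had 3 members within 1 kb of it, with folds of 2.94 to 3.30 and FDR of 0.0991 or above. In Cenpp, 2 members lay within 1 kb of the boundary of Ogn, which encodes the bone proteoglycan osteoglycin, with folds of 3.59 and 2.87. The peak at the Runx2 start (fold 3.27, FDR 0.00173) is itself an interior peak of Supt3, which overlaps Runx2. Such cases were rare as a whole. Of the members 651 (7.51%, 6.96 to 8.08) lay within 1 kb of or inside another annotated gene, and 210 (2.42%, 2.11 to 2.77) within 1 kb of such a gene's boundary. For 8022 (92.5%) no other gene was annotated there.

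By gene list, pooled interior density was highest in long genes of the actin cytoskeleton and adhesion and of mesenchymal transcription factors, and a few genes carried much of it. The lists were drawn up with earlier results of these data known, so their order is only a description. Over all long genes the density was 15 per Mb (14.7 to 15.3), with a median gene at 11.3. The 46 long cytoskeletal and adhesion genes had 24.6 per Mb (22.1 to 27.2, median gene 15.2), 6 had a gene-end peak and 43 an interior one. Cald1 and Cdh11 led it, followed by Cdh13 with 22 interior peaks and Fndc3b with 16. The other 44 genes, without Cald1 and Cdh11, had 17 per Mb (14.9 to 19.2). The 43 transcription factor genes had 22.9 per Mb (20.4 to 25.6, median gene 12.6) and 9 had a gene-end peak, and Runx2, Auts2 and Zfhx3 were among those with the highest counts. Without Runx2 the list had 18.8 per Mb (16.6 to 21.3). The 29 matrix genes had 19.2 per Mb (16.3 to 22.4), although their median gene, at 8.89, was below that of all long genes, and 6 had a gene-end peak. Col12a1 (21 interior peaks), Col5a2 (20, at 158 per Mb) and Col5a1 (15, at 99.3 per Mb), which encode fibril-associated and fibrillar collagen chains, carried much of it, and without Col12a1 and Col5a2 the density was 14.7 (12.2 to 17.6). The 37 growth factor signalling genes had 15.5 per Mb (13.4 to 17.9), with Fgfr2 far ahead of Dlc1 and Nrg1 at 15 peaks each. The 43 large housekeeping and fragile site genes had 13.8 (12.0 to 15.7).

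Neuronal genes, which served as a list of another cell type, were not free of interior peaks. All 65 of these long genes had at least 1, at 17.1 per Mb (16.1 to 18.1), and their median gene stood at 16.4 per Mb, above the 11.3 of all long genes and the 15.2 of the cytoskeletal list. Only 1 of the 65 had a gene-end peak, where 9.47% of long genes did. Their median length was 911 kb, against 172 kb for all long genes. Among peaks with an FDR of at most 0.05 the neuronal list was at 1.82 per Mb (1.51 to 2.19), beside 1.84 (1.73 to 1.96) for all long genes, 5.51 (4.39 to 6.83) for the cytoskeletal list and 3.86 (2.88 to 5.06) for transcription factors. Of the 83 supported peaks of the cytoskeletal list 38 lay in Cald1 and 18 in Cdh11, and without these genes the list was at 1.83 per Mb (1.21 to 2.67), level with all long genes. Without Runx2 the transcription factors were at 2.66 (1.85 to 3.70), and without Fgfr2 the growth factor list fell from 2.75 (1.89 to 3.86) to 1.34 (0.769 to 2.18). Of the neuronal genes, 49 (75.4%) had such a supported peak, and of all long genes 27.3%. Among the 206 genes over 500 kb without a gene-end peak, which are nearer in length, the share was 67.5% (60.6 to 73.8). Those 206 genes held 15.1 interior peaks per Mb (14.6 to 15.7), with a median gene at 13.6. Gene length was not held fixed between lists. Long genes of muscle had 13.0 per Mb (10.0 to 16.7) and those of blood 12.1 (9.42 to 15.3). Both intervals include the 15 of all long genes. Endothelial genes had 8.95 (5.01 to 14.8), from 15 peaks in 8 genes. Epithelial and hepatic genes were at 18.1 (14.4 to 22.4). With an FDR of at most 0.05, muscle was at 2.10 per Mb (1.01 to 3.87) and the epithelial and hepatic list at 2.37 (1.18 to 4.24). Blood was at 0.702 (0.191 to 1.80) and endothelium at 0.597 (0.0151 to 3.33). Ryr3, the muscle gene with the highest count, had 19 interior peaks, and Dpyd, that of the epithelial and hepatic list, 24.

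**Figure D5:**
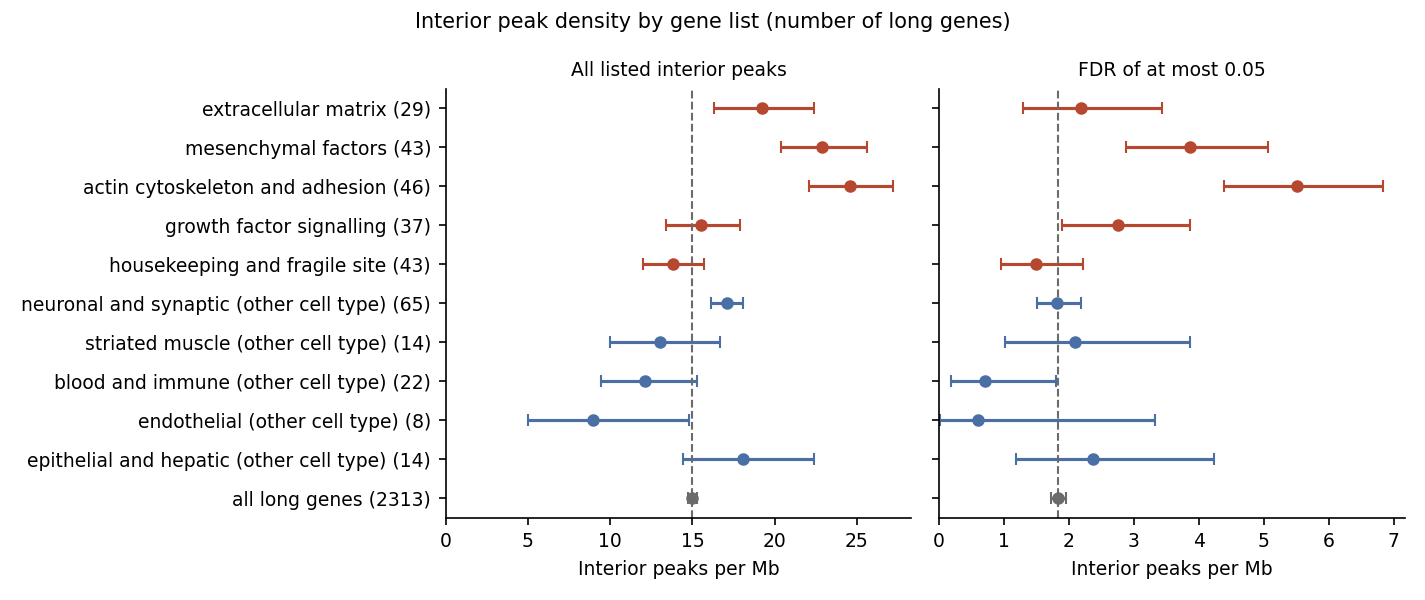
Interior peaks per Mb by gene list for all members (left) and members with an FDR of at most 0.05 (right), with exact Poisson 95% intervals; the number of long genes of each list is in parentheses and dashed lines mark all long genes (15 and 1.84 per Mb). The cytoskeletal list lies highest in both panels, at 24.6 and 5.51 per Mb, but without Cald1 and Cdh11 it is at 17 and 1.83. Neuronal genes lie above the line at the left and on it at the right. The lists were drawn up with earlier results of these data known.

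In the untreated list the same rule gave 357 interior peaks, a density of 0.617 per Mb (0.554 to 0.684). Far from genes that list had 0.538 per Mb. Of the 357, 3 had an FDR of at most 0.05, where 6.11% of its peaks under 1000 bp on these chromosomes did, and 320 had an FDR of 1. The density was 0.547 per Mb (0.354 to 0.808) in genes with an OSS_128167 gene-end peak and 0.624 (0.559 to 0.695) in genes without, with overlapping intervals. On chromosomes 6, 10, 17 and 19 lay 63.0% of the untreated interior peaks and 19% of the OSS_128167 ones. The shares over all peaks of each list were not computed here. The highest untreated folds were 5.65 in Abcg2, a transporter of many substrates, and 5.11 in Adcy9, an adenylyl cyclase.

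Overlap between the interior peaks of the lists was small. Overlap over all peaks of both lists was not computed, so the shares given here are not particular to interior peaks. In each list 8 interior peaks overlapped by at least 1 bp, which is 0.0922% of the OSS_128167 members and 2.24% of the untreated ones. They lay in Gm7592, Runx2, Epc2, Ttbk2, Iqschfp, Zfp993 and, at 2 places, Zfp978. The Runx2 pair (chromosome 17, 44797694 to 44798059 in the OSS_128167 list) had folds of 2.47 and 3.95 and FDR of 0.377 and 0.992. The lowest untreated FDR among the 8 was 0.527. The zinc finger genes Zfp993 and Zfp978 had 15 and 13 interior peaks in the untreated list and 9 and 11 in the OSS_128167 list. Both belong to a large family of similar genes, where reads may be shared between copies.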

How the data were processed

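Pol II ChIP-seq of primary mouse osteoblasts was read from 2 peak lists, 1 per library. The submitters' processing notes name fastp, BWA and mm10. The peak caller is not given in the sources used here, nor is any use of the inputs. Per the file headers, the authors deposited a fold enrichment, which is a ratio, for each peak. They also deposited a p-value and an FDR (an adjusted p-value), and a pileup, which is a height of signal. Depth is unknown.

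Gene boundaries came from RefSeq GRCm38.p6, and strand and starts from its promoter table, in which 1772 of 2313 long genes were matched. Densities are distinct peaks over merged interior sequence. Intervals are exact at 95% (Poisson, Clopper-Pearson). There was no test, since each condition had 1 library. The members and gene lists were chosen with earlier results of these data known. The rule for named genes took, among long genes, the 10 with most interior peaks with and without a gene-end peak, the 6 longest, the 6 densest, up to 4 per list, the 8 peaks of highest fold, the 5 highest gene-end folds without interior peaks, and peaks overlapping between lists. One gene that met this rule is not reported here. Alternatives varied FDR, fold, windows, gene length, merging and overlaps. Counting was checked on simulated data. Python 3.11.15 was used with scipy 1.17.1, pandas 2.3.3, numpy 2.4.6 and matplotlib 3.10.9.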

Additional observations from a re-analysis of the deposited data

How the results depend on the processing

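No paired analysis was possible because each condition had 1 library. Of 77 values of the main comparisons recomputed under 11 settings, 49 stayed within the reported interval or within 1.5 times the reported count, and 28 moved. A change of direction could be judged only for the density ratio and the ratio near the end. Neither of them reversed in any setting where it was computed. Restricting both gene-end and interior peaks to an FDR of at most 0.05 left 1067 interior peaks and 3 untreated ones. The density ratio was then 7.89, the shares of genes with an interior peak 50% with and 26.7% without a gene-end peak, the last bin 46.9% with an end peak only and 10.9% with neither, and the ratio at 1 to 5 kb from the end 30.4 (reported 5.48). A fold of at least 3 gave 3101 peaks, 3.32, 73.5% and 55.9%, 30.2% for the last bin with an end peak only, and 11 for the ratio near the end. Genes of at least 200 kb gave a density ratio of 1.68, shares of 100% and 94.8%, last bins of 19.4% and 10.7%, and a ratio near the end of 2.44 (0.939 to 5.38), whose interval includes 1. Merging peaks within 5 kb gave 1.38 for the density ratio, 19% for the last bin with an end peak only and 3.56 near the end. The density ratio was 1.68 with gene-end windows of 2000 bp, 2.50 with 500 bp and 2.11 by peak centres. Without Cald1, Runx2, Sorbs2, Csmd1 and Pcdh15, a setting chosen after seeing the data, it was 1.71. Without members near another annotated gene, 80.6% of genes with no gene-end peak had an interior peak. The values without leading genes that stand beside the list, class, distance and internal start results were also chosen after seeing the data. The cause was not tested. The unknown depth limits what the untreated list could show.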

Other observations

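Chromosome 13 had few interior peaks in the OSS_128167 list. Its 99 long genes held 122, which is 4.84 per Mb, while the other 18 chromosomes lay between 11.3 per Mb (chromosome 19) and 21.8 per Mb (chromosome 8). Far from genes chromosome 13 was also the lowest, at 3.07 per Mb. Only 3 of its long genes had a gene-end peak, with 3 interior peaks between them.

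Among members near genes of small RNAs, 14 lay within 1 kb of a microRNA gene, 2 of them with an FDR of at most 0.05 (those at Mir199a-2 and Mir214 in Dnm3). For genes of small nuclear RNAs the numbers were 7 and 1, and for those of small nucleolar RNAs 2 and 0.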
